A study of Mus musculus with 8 samples.

Results

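Tmem119, Selplg, Olfml3, Sparc, Golm1, Crybb1 and Bin1 are 7 markers of resting microglia, chosen by name from the 38026 genes of the deposited expression table. Each was matched by its symbol to 1 Ensembl gene, and each was above 1 TPM (transcript abundance per library total, a level corrected for transcript length) in all 8 libraries, so none owed its place among the tested genes to the group in which it was higher. The libraries are bulk RNA-seq of C57BL/6 mouse cells captured with magnetic beads against CD11b, the integrin chain shared by microglia with other cells of the myeloid lineage. 5 libraries hold TAMs, microglia and macrophages associated with medulloblastoma, a tumor of the cerebellum, taken from mice aged 68, 90, 61, 66 and 62 days (replicates 1 to 5). The other 3 libraries were microglia from normal cerebral cortex at 60 days. RNA was extracted with Trizol in both groups after papain digestion and removal of myelin. The genetic driver of the tumors is not given in the sources used here. Tumor and brain region differ together between the groups, so their contributions cannot be told apart. Nothing in the labels says whether libraries of a group came from separate mice, other than the different ages of the TAMs, so p-values measure the spread between these libraries.

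Microglia are the resident macrophages of the brain and settle there during embryonic development. In the undisturbed adult brain they keep a set of genes that blood monocytes and the macrophages derived from them have little of, and this set depends on TGF-beta signaling and on transcription factors such as Sall1. Reactive microglia lower many of these genes, and monocyte-derived macrophages that enter the brain acquire them only in part, so in a bulk sample of captured cells fewer cells of a type and less RNA per cell cannot be told apart.

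The cortex libraries carried the defining microglia markers at high level, with P2ry12 at 2307 ± 311 TPM (SD, n = 3) and Cx3cr1 at 1815 ± 119 TPM (SD, n = 3). Both were also present in TAMs, at 280 ± 128 and 653 ± 203 TPM (SD, n = 5). Endothelial markers were present in the cortex libraries, with 14 genes summing to 934 to 2809 TPM against 31.1 to 135 TPM in TAMs. All 8 libraries summed to nearly the same TPM, from 990422 to 997832, and read depth is not kept in TPM and is unknown. The 3 most abundant features (Mir6236, Gm15662 and Apoe) made up 18.2% to 24.5% of the TPM total of a TAM library, against 3.24% to 12.8% for microglia. Over all 15262 genes tested the median log2 fold change was -0.65, so a typical gene was listed lower in TAMs. Each marker is therefore also given on rescaled TPM, where the values of a library are divided by the median, over genes, of their ratios to the geometric mean of the 8 libraries, and the median over 15016 tested genes was 0.07.

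For all 7 markers the highest TAM library was below the lowest microglia library. On TPM 6 of the 7 passed the test as lower in TAMs (limma on log2(TPM + 1), Benjamini-Hochberg adjusted p at most 0.05 over all genes), where 56.4% of all genes tested were called lower and 8.22% higher. Groups without overlap in this direction were found for 49.7% of the genes tested, against all 7 markers, and no test compared the markers with other genes. On rescaled TPM 3 of the 7 were called lower, Tmem119, Selplg and Crybb1, and for these 3 alone among the 7 the groups did not overlap, against 20.8% of genes called lower, 28% called higher and 20.8% without overlap. The log2 fold changes of these 3 were the largest of the 7 on both scales. In the authors' deposited comparison the same 3 passed after Benjamini-Hochberg adjustment of its p-values, where 16% of 27039 genes were lower and 17.6% higher. The 7 markers had a median log2 fold change of -2.18 before and -1.36 after rescaling. Rescaled and without TAM replicate 2, those 3 were again called lower and none of the others, where 21.3% of genes were called lower and 28.3% higher. Fold changes were taken after adding 1 TPM, so they are too small for genes of low level.

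**Figure D1:**
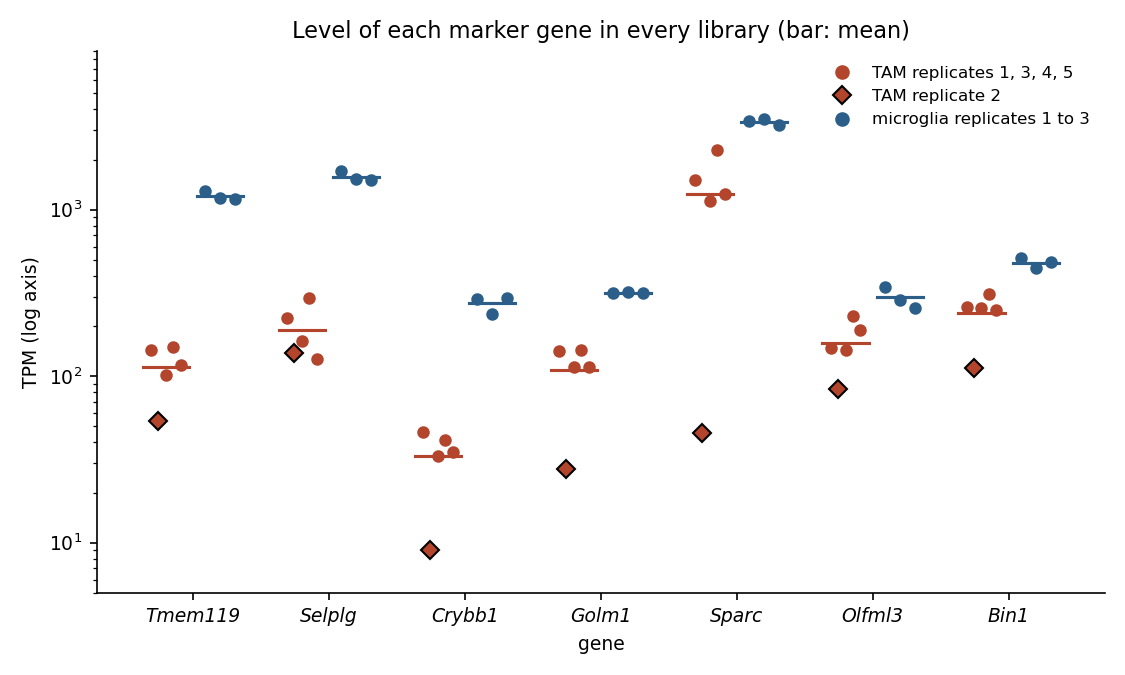
TPM (log axis) of the 7 marker genes in each of the 8 libraries, with the mean of each group as a bar and TAM replicate 2 as an outlined diamond. Every TAM library lies below every microglia library for all 7 genes, and Tmem119 is at 53.5 to 149.8 TPM in TAMs against 1164 to 1289 in microglia.

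Tmem119 encodes a transmembrane protein that in the adult brain is used to tell microglia from other macrophages. The gene (ENSMUSG00000054675) lies on chromosome 5, at 113793729 to 113800516 on mm10. Its level was 143.7, 53.5, 101.1, 149.8 and 116.0 TPM in TAM replicates 1 to 5 and 1289, 1171 and 1164 TPM in microglia replicates 1 to 3. The groups were far apart, with the highest TAM library, replicate 4, still far below the lowest microglia library, and TAM replicate 2 the lowest of all. Among all genes of a library ordered by TPM, Tmem119 stood 78th, 85th and 88th in the microglia and between 655th and 1925th in the TAMs. The mean of 1208 ± 70.7 TPM (SD, n = 3) in microglia was 10.7 times the mean of 113 ± 38.7 TPM (SD, n = 5) in TAMs. The log2 fold change was -3.49 with a standard error of 0.31 (limma, adjusted p = 9.05e-05), and it was -2.67 on rescaled TPM (limma, adjusted p = 0.000742). Without TAM replicate 2 it was -3.25 with a standard error of 0.15. The authors' deposited table lists a log2 fold change of -2.55, with a p-value that gives 4.74e-11 after Benjamini-Hochberg adjustment.

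Selplg encodes PSGL-1, the mucin-like ligand through which leukocytes roll on selectins, and is carried by many leukocytes besides microglia. It lies beside Tmem119 (ENSMUSG00000048163, chromosome 5, 113818536 to 113832644), with 18019 bases and no other tested gene between the 2 genes. Its level was 223.8, 137.2, 163.7, 293.6 and 127.5 TPM in TAM replicates 1 to 5 and 1705, 1528 and 1512 TPM in the microglia. Again no library of one group reached the other, but the lowest TAM library was replicate 5, and replicate 2 lay within the range of the other TAMs. The log2 fold change was -3.13 with a standard error of 0.26 (limma, adjusted p = 7.60e-05) and -2.30 on rescaled TPM (limma, adjusted p = 0.00170). The authors' deposited table lists -2.17.

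The machinery that decorates PSGL-1 for selectin binding was followed through 13 genes, of which 11 passed the filter, 2 rose and 6 fell, with 3 and 3 on rescaled TPM. The median log2 fold change of these 11 was -0.68, against -0.65 over all genes tested. St3gal6, a sialyltransferase, fell with a log2 fold change of -3.34 (limma, adjusted p = 0.000105), from 261 ± 13.4 TPM (SD, n = 3) to 26.4 ± 10.3 TPM (SD, n = 5). Tpst2, which sulfates tyrosines, fell from 203 ± 10.5 (SD, n = 3) to 85.7 ± 6.63 TPM (SD, n = 5), a log2 fold change of -1.24 (limma, adjusted p = 4.74e-05), and Gcnt1, which starts the core 2 branch of O-glycans, fell with -1.62 (limma, adjusted p = 0.000316). These 3 were also called lower on rescaled TPM. B4galt1, a galactosyltransferase, fell on TPM with -1.07 (limma, adjusted p = 0.000253) and was not called on rescaled TPM (-0.26, limma, adjusted p = 0.128). The fucosyltransferase Fut7, needed for the sialyl Lewis X epitope, rose from 0.372 ± 0.0699 (SD, n = 3) to 1.88 ± 0.700 TPM (SD, n = 5), with a log2 fold change of 1.03 (limma, adjusted p = 0.00600).

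Olfml3 encodes a secreted olfactomedin-domain protein that has been linked to BMP signaling. The gene (ENSMUSG00000027848) lies on chromosome 3, at 103722222 to 103738001. TAM replicates 1 to 5 had 148.1, 83.7, 143.8, 229.7 and 188.6 TPM and the microglia 344.5, 288.5 and 258.1 TPM. The groups did not overlap on TPM, but TAM replicate 4 came close to microglia replicate 3. On rescaled TPM the ranges crossed, with 107 to 300.4 in TAMs and 169 to 294 in microglia. The log2 fold change was -0.97 with a standard error of 0.29 (limma, adjusted p = 0.0182) and -0.14 on rescaled TPM (limma, adjusted p = 0.739). The call on TPM was lost without microglia replicate 1 (-0.85, limma, adjusted p = 0.0613) and without microglia replicate 2 (-0.98, limma, adjusted p = 0.0547). The authors' deposited table lists -0.11, not past the threshold.

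Of the other 8 olfactomedin genes 6 passed the filter, and 3 of these fell and none rose (2 and none on rescaled TPM). Olfml2a fell from 4.40 ± 1.25 (SD, n = 3) to 0.724 ± 0.674 TPM (SD, n = 5), Olfml2b from 13.2 ± 1.85 (SD, n = 3) to 5.91 ± 3.01 TPM (SD, n = 5). Myoc fell from 17.1 ± 14.0 TPM (SD, n = 3) to 0.0209 ± 0.0151 TPM (SD, n = 5). Olfml3 was the most abundant of its family in both groups. Of 20 genes of the BMP pathway 16 were tested, and 15 fell and none rose, with 10 and none on rescaled TPM. The ligand Bmp2 fell from 27.2, 16.9 and 16.0 TPM in the microglia to 3.03 to 5.75 TPM in TAMs, with a log2 fold change of -1.98 (limma, adjusted p = 0.000305), and the target gene Id1 from 124 ± 60.8 (SD, n = 3) to 6.45 ± 1.98 TPM (SD, n = 5). Smad7, an inhibitor of TGF-beta and BMP receptors, fell from 98.6 ± 6.97 (SD, n = 3) to 24.4 ± 6.20 TPM (SD, n = 5). Id1 is also abundant in brain vessels, and in microglia replicates 1 to 3 it was at 53.9, 165.5 and 151.4 TPM while the endothelial list summed to 934, 2809 and 2161 TPM. The part of vessel RNA in these falls was not tested.

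Sparc encodes osteonectin, a secreted collagen-binding protein of the matrix that microglia make in the resting state and that endothelial and mural cells also make. The gene (ENSMUSG00000018593) lies on chromosome 11, at 55394500 to 55420080. It was the most abundant of the 7 markers in both groups by mean TPM, with 3403, 3503 and 3239 TPM in the microglia. TAM replicates 1 to 5 had 1515, 45.7, 1134, 2288 and 1241 TPM. The groups did not overlap, and TAM replicate 2 stood far below the other 4 TAM libraries, the lowest of which had 24.8 times its level. With all 8 libraries the log2 fold change of -2.18 had a standard error of 1.14 and did not pass (limma, adjusted p = 0.121). Without TAM replicate 2 it was -1.18 with a standard error of 0.24 and passed (limma, adjusted p = 0.00415), when all 7 markers did and 55.2% of genes were called lower and 8.62% higher. On rescaled TPM it was -1.36 (limma, adjusted p = 0.361), and the authors' deposited table lists -0.55, not past the threshold.

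Vessel markers were higher in the cortex libraries and differed among them more than Sparc did. The 14 endothelial genes, all called lower in TAMs on both scales, summed to 934, 2809 and 2161 TPM in microglia replicates 1 to 3, and the 10 mural cell genes, all called lower on TPM and 9 on rescaled TPM, to 356, 917 and 777 TPM. Sparc differed by far less among the same 3 libraries, as given above. In TAM replicate 2 the endothelial sum was 67.9 TPM, within the 31.1 to 135 TPM of the other TAMs, and the mural sum was 9.15 TPM. Its close relative Sparcl1, an endothelial and astrocyte gene, was at 91.7, 434.6 and 335.9 TPM in microglia replicates 1 to 3 and at 2.22 to 13.8 TPM in TAMs. Sparcl1 fell with a log2 fold change of -5.39 (limma, adjusted p = 0.000251). Of the other 7 genes of the SPARC family 4 were tested, and 3 fell (Sparcl1, Spock2 and Fstl1), all 3 on rescaled TPM too. Of 13 collagens and SPARC partners 11 were tested, with 8 lower and none higher on TPM, and 5 lower and 1 higher on rescaled TPM. Serpinh1, a collagen chaperone, and Col1a2 fell on both scales (-2.96 and -2.68 on TPM), and Pdgfb, a growth factor that SPARC binds, on TPM only (-1.58, and -0.76 rescaled). Col4a1, a collagen of vessel basement membranes, fell from 42.1 ± 23.4 (SD, n = 3) to 5.68 ± 4.90 TPM (SD, n = 5), while Stab1, a receptor that clears SPARC, had 587 ± 51.0 (SD, n = 3) and 520 ± 204 TPM (SD, n = 5) and was not called (limma, adjusted p = 0.455). What vessel RNA adds to Sparc in the cortex libraries was not tested.

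Golm1 encodes a membrane protein of the cis and medial Golgi. The gene (ENSMUSG00000021556) lies on chromosome 13, at 59634996 to 59675784. Its level in the microglia varied little, at 316.0, 319.5 and 316.6 TPM, and was 141.1, 27.7, 114.2, 144.6 and 113.6 TPM in TAM replicates 1 to 5. The groups did not overlap, and 4 TAM libraries lay close together with replicate 2 well below them. The log2 fold change was -1.74 with a standard error of 0.50 (limma, adjusted p = 0.0145), -1.31 with a standard error of 0.11 without TAM replicate 2, and -0.92 on rescaled TPM (limma, adjusted p = 0.179). The authors' deposited table lists -0.70, not past the threshold. Of 14 other Golgi proteins, all tested, 10 fell and none rose on TPM, while on rescaled TPM none fell and 4 rose. Their median log2 fold change of -0.55 was near that of all genes.

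Crybb1 encodes beta-B1 crystallin, a structural protein first known from the eye lens. The gene (ENSMUSG00000029343) lies on chromosome 5, at 112255815 to 112269585. Its level was 46.4, 9.08, 33.3, 41.3 and 35.1 TPM in TAM replicates 1 to 5 and 291.9, 237.7 and 295.0 TPM in the microglia. It was the least abundant of the 7 in the TAMs, with TAM replicate 2 far below the rest, and the groups were wide apart. The log2 fold change was -3.19 with a standard error of 0.46 (limma, adjusted p = 0.000714) and -2.37 on rescaled TPM (limma, adjusted p = 0.00569). The authors' deposited table lists -2.17, past the threshold.

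The nearest listed gene to Crybb1 is another crystallin, Cryba4, and the 2 genes lie head to head with 3297 bases between their starts. Cryba4 had 67.8, 25.8, 61.4, 69.4 and 54.1 TPM in TAM replicates 1 to 5 and 70.5, 56.1 and 55.4 TPM in the microglia. The groups overlapped, with only TAM replicate 2 clearly lower. Its log2 fold change was -0.19 (limma, adjusted p = 0.598) and 0.62 on rescaled TPM (limma, adjusted p = 0.197). In the microglia Crybb1 was thus the more abundant of the neighbours, and in every TAM library Cryba4 was. Of 4 other tested crystallin genes, Cryba4 included, 2 fell and none rose on TPM (1 and none on rescaled TPM), and the 2 that fell, Crybb3 and Crybg3, stayed at or below 14.8 TPM in both group means.

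The promoters of these neighbours, from 250 bases before to 50 bases after the start of transcription, are shown because the 2 genes share a locus and differ in fold change. They come from RefSeq on GRCm38.p6. Among the markers, promoters were taken for Crybb1, Golm1, Olfml3 and Sparc. For Tmem119 and Selplg no entry was matched in the promoter set used, and that of Bin1 was not searched. That of Crybb1 is chr5:112255570-112255869 on the plus strand, and that of Cryba4 is chr5:112252469-112252768 on the minus strand. Golm1, at chr13:59675735-59676034 on the minus strand, is added because its ratio to Crybb1 was nearly the same in every TAM library, as given below.
Crybb1: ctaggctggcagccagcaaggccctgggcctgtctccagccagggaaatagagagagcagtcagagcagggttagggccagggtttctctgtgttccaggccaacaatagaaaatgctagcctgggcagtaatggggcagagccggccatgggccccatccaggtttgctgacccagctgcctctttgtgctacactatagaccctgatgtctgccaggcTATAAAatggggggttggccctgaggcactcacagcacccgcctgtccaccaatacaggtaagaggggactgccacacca
Cryba4: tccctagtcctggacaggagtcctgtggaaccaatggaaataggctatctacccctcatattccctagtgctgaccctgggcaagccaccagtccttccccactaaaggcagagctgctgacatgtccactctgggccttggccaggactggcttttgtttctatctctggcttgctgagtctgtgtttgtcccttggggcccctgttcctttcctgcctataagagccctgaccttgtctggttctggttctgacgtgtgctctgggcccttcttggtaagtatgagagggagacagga
Golm1: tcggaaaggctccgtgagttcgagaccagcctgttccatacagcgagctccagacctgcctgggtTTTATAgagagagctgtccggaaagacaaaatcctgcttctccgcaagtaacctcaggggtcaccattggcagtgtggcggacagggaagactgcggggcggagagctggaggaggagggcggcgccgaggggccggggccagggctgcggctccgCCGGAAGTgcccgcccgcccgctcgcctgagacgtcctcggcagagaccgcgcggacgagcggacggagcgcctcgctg
Each is read 5′ to 3′ along its gene. Capitals mark exact matches to TATAAA, a form of the TATA box, or to CCGGAAGT, a core bound by ETS factors, on either strand. Both strings were added to the planned search, which held only the motifs for factors of microglia given below. TATAAA was found in Crybb1 at position -30 from the start and in Golm1 at position -185 on the opposite strand, where it reads TTTATA. It occurs in 13.6% of 32851 promoters of the same length. The ETS core was found in Golm1 at position -29, and in 3.89% of promoters. Neither exact string was found in Cryba4, Olfml3 or Sparc. Cryba4 reads tataag upstream of its start, which differs from TATAAA in the last base. Other forms of the TATA box were not searched. Motifs for factors of microglia were searched on both strands too, GAGGAAGT for PU.1 and the composite site of PU.1 with IRF, the MAF site and the MEF2 site. They occur in 3.20%, 2.72%, 0.387% and 3.69% of promoters, and none was found in the promoters of the 4 markers. A match or its lack describes these 300 bases only and says nothing of what binds there.

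Bin1 encodes amphiphysin 2, an adaptor whose BAR domain senses and bends membranes during endocytosis. The gene (ENSMUSG00000024381) had 262.0, 111.4, 257.4, 312.2 and 250.7 TPM in TAM replicates 1 to 5 and 510.8, 445.2 and 486.4 TPM in the microglia. The groups did not overlap, and 4 TAM libraries were close together above replicate 2. The log2 fold change was -1.08 with a standard error of 0.30 (limma, adjusted p = 0.0130) and -0.26 on rescaled TPM (limma, adjusted p = 0.564). The authors' deposited table lists -0.19, not past the threshold. On rescaled TPM the ranges overlapped, with 142 to 408 in TAMs and 263 to 436 in microglia. Of 8 other tested genes with a BAR domain 4 fell and none rose on TPM, and on rescaled TPM 1 fell and 3 rose. Bin2, the relative of Bin1 found in blood cells, fell from 466 ± 21.9 (SD, n = 3) to 201 ± 19.2 TPM (SD, n = 5), with a log2 fold change of -1.21 (limma, adjusted p = 7.20e-05), and was not called on rescaled TPM (-0.38, limma, adjusted p = 0.156). Of 18 partners of Bin1 in endocytosis 10 fell and 2 rose on TPM, and 2 fell and 7 rose on rescaled TPM. Cd2ap, an adaptor between endocytosis and actin, fell on both scales (-1.61 and -0.81), and Picalm and Dnm2, a clathrin adaptor and a dynamin, fell on TPM (-1.20 and -0.85) and were not called on rescaled TPM (-0.38 and -0.02). Ap2s1, the small subunit of the AP-2 adaptor, rose on both, by 0.57 and 1.38 on the log2 scale.

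**Figure D2:**
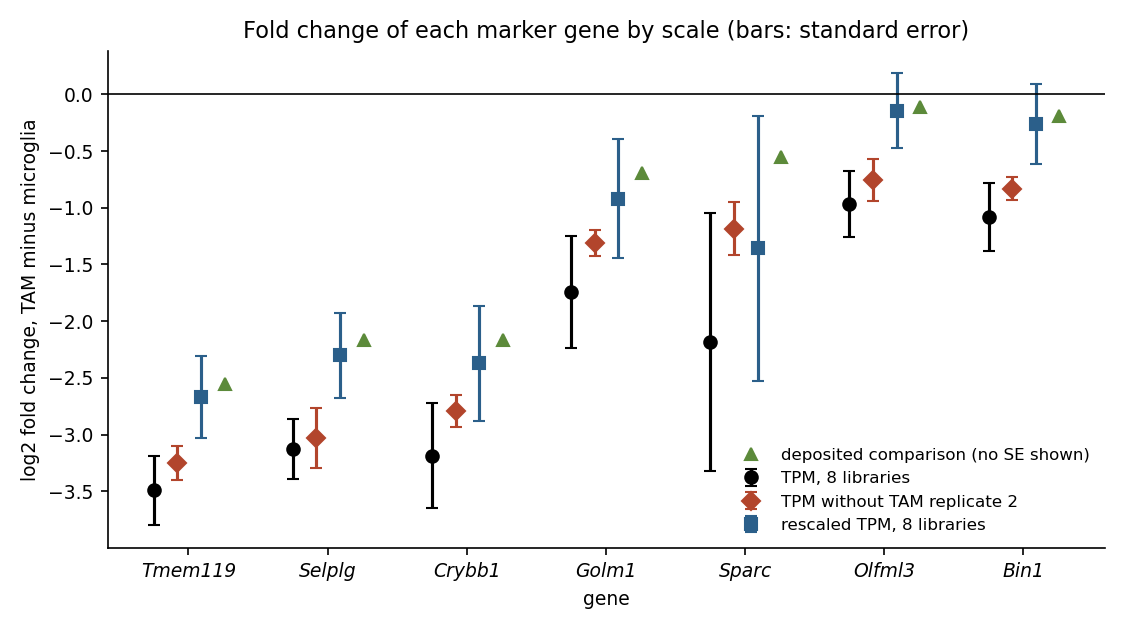
Log2 fold change (TAM minus microglia) of the 7 genes on TPM with all 8 libraries, on TPM without TAM replicate 2, on rescaled TPM, and as listed in the authors' deposited table, with standard errors for the first 3. Tmem119, Selplg and Crybb1 lie at or below -2.17 on every scale, whereas Olfml3 (-0.97 on TPM, -0.14 rescaled) and Bin1 (-1.08 and -0.26) come near 0 once the libraries are rescaled.

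Ratios between 2 markers within a library do not depend on how the library was scaled. The ranges given are of such ratios. Limma on the ratios was added after the data were seen. Its standard errors are drawn toward those of all genes set against the same denominator. They are thus not the spread of the named ratio alone. Limma used TPM + 1, so its differences do depend on scale. For Crybb1 to Bin1 the difference was -2.15 in plain ratios and -2.10 in limma. In every microglia library Tmem119 exceeded Olfml3, with log2 ratios of 1.90 to 2.17, and in every TAM library it was below Olfml3, at -0.70 to -0.04. The difference was -2.53 (limma on the ratios, adjusted p = 8.10e-06). Tmem119 likewise changed places with Bin1, from 1.26 to 1.39 in microglia to -1.35 to -0.87 in TAMs, a difference of -2.41 (limma on the ratios, adjusted p = 2.41e-05). Selplg fell against Bin1 by a difference of -2.04 (limma on the ratios, adjusted p = 0.000329), and Crybb1 by -2.10 (limma on the ratios, adjusted p = 0.000755). These pairs did not overlap between the groups, and TAM replicate 2 lay within the range of the other TAMs for Tmem119 to Olfml3 and Tmem119 to Bin1.

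The remaining 3 pairs that passed were Olfml3 to Selplg, with a difference of 2.16, Olfml3 to Crybb1, with 2.22, and Tmem119 to Golm1, with -1.75 (limma on the ratios, adjusted p = 0.000122, 0.000425 and 0.0355). Several pairs overlapped between the groups or did not pass. Olfml3 to Bin1 ranged from -0.84 to -0.41 in TAMs and from -0.91 to -0.57 in microglia, with a difference of 0.12 (standard error 0.34, limma on the ratios, adjusted p = 0.852). Tmem119 to Selplg ranged from -1.36 to -0.14 in TAMs and stayed at -0.40 to -0.38 in microglia, with a difference of -0.37 (standard error 0.38, limma on the ratios, adjusted p = 0.348). Golm1 to Crybb1 was the ratio in which the TAMs were tightest, at 1.60 to 1.81 with replicate 2 inside that range, although both genes were lowest there. It was 0.10 to 0.43 in microglia, and the difference of 1.44 did not pass with all libraries (limma on the ratios, adjusted p = 0.0925) and did without TAM replicate 2 (1.48, adjusted p = 7.73e-05). The SD of this ratio was 0.09 in TAMs and 0.18 in microglia, against a limma standard error of 0.61 with all libraries. That standard error thus exceeds the spread of the ratio itself, and the missing call does not mean that the ratio varied.

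Counted over all 21 pairs, the groups did not overlap in 9. How often such ratios do not overlap over all genes was not taken, so this count has no background. The exact permutation test of 5 against 3 libraries cannot go below a two-sided p of 0.0357, which all 9 reached, and after adjustment over 21 pairs none passed (smallest adjusted p = 0.0833). In limma fits of the ratio across all genes 7 pairs passed with all libraries and 14 without TAM replicate 2. All 7 set 1 of the 3 markers called on rescaled TPM against 1 of the other 4, which gives 12 such pairs, and all 12 passed without TAM replicate 2. Among those 3 markers themselves none of 3 pairs passed, and 1 did without TAM replicate 2, Tmem119 to Crybb1 at -0.46 (limma on the ratios, adjusted p = 0.0420). Among the other 4 none of 6 pairs passed, and 1 did without TAM replicate 2, Golm1 to Bin1 at -0.48 (limma on the ratios, adjusted p = 0.0224). The split into 3 and 4 follows the calls on rescaled TPM and is a description of them. For comparison with the limma calls, which need both directions, the shares of all genes are for 1 direction only. Of all genes 0.439% fell and 94.1% rose against Tmem119. Against Olfml3 5.74% fell and 13.3% rose, and against Bin1 4.69% fell and 14.7% rose. Against Selplg these shares were 0.675% and 91.8%, against Crybb1 0.518% and 89.3%, against Golm1 1.57% and 18.6%, and against Sparc 0.00655% and 0.249%. Without TAM replicate 2 they were 0.563% and 93.2% against Tmem119, 0.741% and 90.9% against Selplg, 0.953% and 89.7% against Crybb1, 9.12% and 14.7% against Olfml3, 9.24% and 22.3% against Bin1, 5.62% and 45.8% against Golm1, and 5.42% and 23.6% against Sparc.

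**Figure D3:**
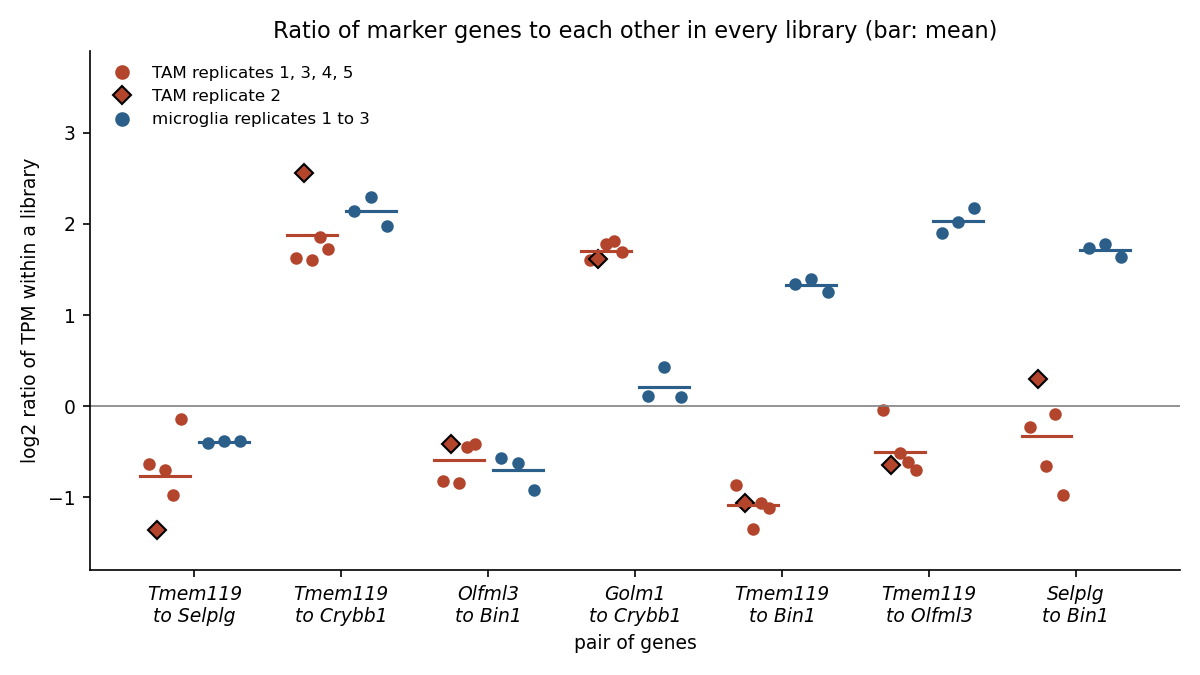
Log2 ratio of TPM within each library for 7 pairs of marker genes, with group means as bars and TAM replicate 2 as an outlined diamond. Tmem119 to Selplg and Olfml3 to Bin1 overlap between the groups, Golm1 to Crybb1 is at 1.60 to 1.81 in all TAMs, and in the 3 pairs on the right the highest TAM library is below the lowest microglia library.

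The markers were also set against 6 genes of myeloid cells in the same library. Against Aif1, the gene of the pan-microglial protein Iba1, all 7 fell (limma on the ratios), where 79.7% of all genes did, and without TAM replicate 2 all 7 did again, where 85.2% of genes fell. Against Ptprc, which encodes the leukocyte antigen CD45, 6 of 7 fell, where 39.5% did, and without TAM replicate 2 all 7 fell, where 39.8% did. Against Csf1r, the receptor microglia need to survive, Tmem119, Selplg and Crybb1 fell and Olfml3 and Bin1 rose, where 3.77% of genes fell and 66.5% rose. Those 5 calls stood without TAM replicate 2, where the shares were 4.32% and 64.3%. Against Itgam, which encodes CD11b itself, the same 3 fell and none rose, where 3.41% fell and 67.5% rose. Without TAM replicate 2 the 3 fell as well, and Olfml3, Bin1 and Golm1 rose against Itgam, by 1.07, 1.00 and 0.52 on the log2 scale (limma on the ratios, adjusted p = 0.00386, 0.00230 and 0.0353), where 3.21% of genes fell and 71.2% rose. Tmem119 to Itgam went from 0.84 to 1.04 in microglia to -2.11 to -0.13 in TAMs, a difference of -1.74 (limma on the ratios, adjusted p = 0.00141). Against Cx3cr1, the fractalkine receptor, those 3 again fell, where 4.1% of genes did and 48.8% rose, and no marker rose. Without TAM replicate 2 Olfml3 and Bin1 rose against Cx3cr1, by 0.59 and 0.51 (limma on the ratios, adjusted p = 0.00976 and 0.0367), where 5.84% of genes fell and 52% rose.

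P2ry12, the purinergic receptor of resting microglia, had ratios to Tmem119, Selplg and Crybb1 that overlapped between the groups. The ratio of Tmem119 to P2ry12 ranged from -1.48 to -0.28 in TAMs and from -1.01 to -0.76 in microglia (difference -0.24, standard error 0.69, limma on the ratios, adjusted p = 0.740), and without TAM replicate 2 the difference was -0.46 and passed (adjusted p = 0.0282), where 0.973% of genes fell. Crybb1 to P2ry12 was -3.21 to -2.84 in TAMs and -3.31 to -2.74 in microglia (difference 0.07, standard error 0.71, limma on the ratios, adjusted p = 0.926). The SD of that ratio was 0.16 in TAMs and 0.29 in microglia. Standard errors in limma are here drawn toward those of all genes set against P2ry12, and exceed the spread of this ratio. Olfml3, Bin1 and Golm1 rose against it, by 2.29, 2.17 and 1.51 on the log2 scale (limma on the ratios, adjusted p = 0.00176, 0.00275 and 0.0349), where 88% of all genes rose and 0.38% fell. Without TAM replicate 2 these 3 and Sparc (by 1.60) rose, where 89.9% of genes did. Over all 42 ratios to the 6 genes, 27 passed by limma and 35 without TAM replicate 2. By the exact permutation test 29 had an unadjusted p of 0.0357 and none passed after adjustment (smallest adjusted p = 0.0517). The share of all genes that reach this p in such ratios was not taken.

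The order of the markers by mean TPM differed between the groups. In microglia it was Sparc, Selplg, Tmem119, Bin1, Golm1, Olfml3 and Crybb1, and the ranges of neighbours in this order overlapped only among the last 3. In TAMs it was Sparc, Bin1, Selplg, Olfml3, Tmem119, Golm1 and Crybb1, and every pair of neighbours had overlapping ranges, so the ranges do not resolve that order. Compared within a TAM library, Olfml3 was above Tmem119, and Golm1 above Crybb1, in 5 of 5. The other neighbours kept the order in 4 of 5 each.

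TAM replicate 2, from the oldest mouse at 90 days, was the lowest TAM library for 6 of the 7 markers, whereas 26% of all genes tested were lowest there. The lowest of the other 4 TAMs exceeded it 24.8-fold in Sparc, 4.10-fold in Golm1, 3.67-fold in Crybb1, 2.25-fold in Bin1, 1.89-fold in Tmem119 and 1.72-fold in Olfml3, and in Selplg it did not. The same library had 1.76 TPM of Sall1, a transcription factor that keeps microglial identity, against 36.0 to 68.6 TPM in the other TAMs, and 6.99 TPM of Siglech, a microglial lectin, against 57.3 to 109 TPM. Its mean log2(TPM + 1) over 14 markers of monocyte-derived macrophages was 6.15, against 4.92 to 5.67 in the other TAMs and 3.58 to 3.75 in microglia. Over 10 border macrophage markers it was 6.80, against 5.37 to 6.09 and 6.84 to 7.32, and over 10 neutrophil markers 4.01, against 2.49 to 3.09 and 2.00 to 2.17. Ptprc, carried by all leukocytes, was at 177 TPM there and at 83.4 to 118 TPM in the other TAMs. Ly6g, a defining neutrophil gene, was at 0.540 TPM in TAM replicate 2, at 0.794 TPM in TAM replicate 4 and at 0 in the other 6 libraries. The part of other myeloid cells in the low marker levels of this library was not tested.

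**Figure D4:**
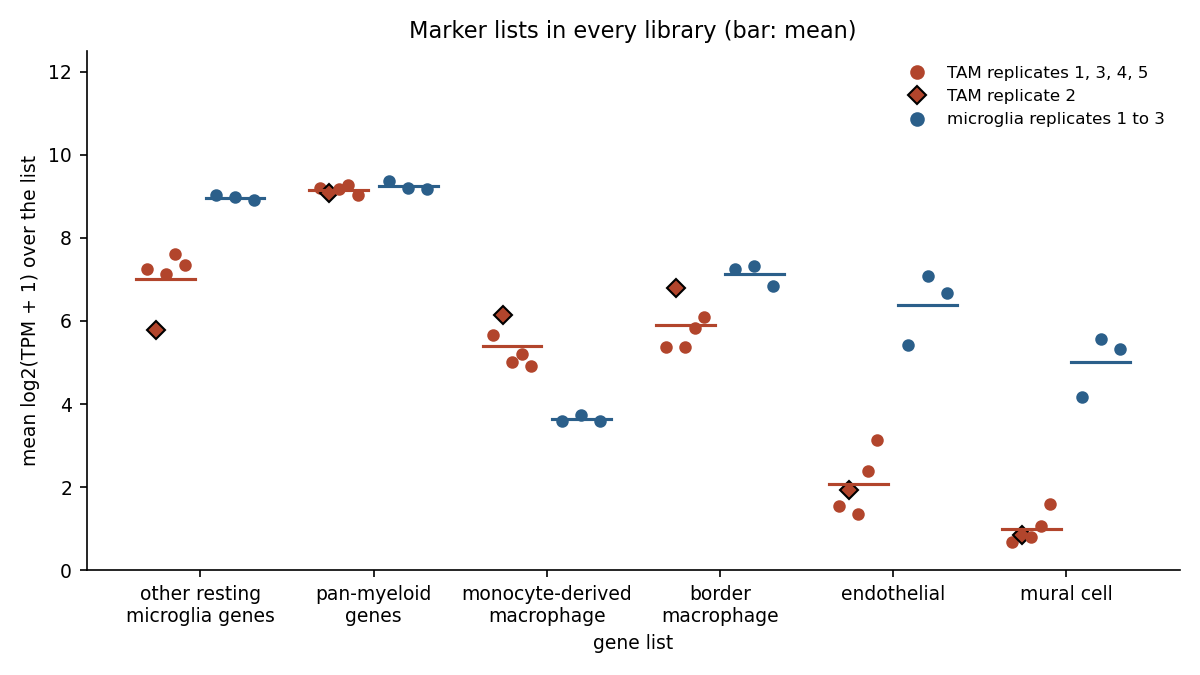
Mean log2(TPM + 1) of 6 gene lists in each library, with group means as bars and TAM replicate 2 as an outlined diamond. TAM replicate 2 is lowest on other resting microglia genes (5.79, against 7.12 to 7.60 in the other TAMs) and highest of all on monocyte-derived macrophage markers (6.15), and pan-myeloid genes lie between 9.04 and 9.36 in all 8.

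Among 25 other resting microglia genes, 19 fell and none rose on TPM, 15 fell and none rose on rescaled TPM, and 20 fell without TAM replicate 2. Their medians of -1.70 on TPM and -1.03 on rescaled TPM stand against -0.65 and 0.07 for all genes tested. Like the markers, they did not move alike: the fructose transporter gene Slc2a5 fell with a log2 fold change of -6.60 (limma, adjusted p = 4.87e-05), while the Fc receptor-like gene Fcrls had -0.15 (limma, adjusted p = 0.679). Of 12 pan-myeloid genes 4 rose and 4 fell on TPM, and 7 rose and 2 fell on rescaled TPM. Of the 14 monocyte-derived macrophage markers 8 rose and none fell on TPM, 10 and none on rescaled TPM, and 8 and none without TAM replicate 2. Lyz2, lysozyme of macrophages, was at 5005 to 11603 TPM in TAMs and 574 to 986 TPM in microglia. Of the 10 border macrophage markers 1 rose (Ms4a7, in both lists) and 6 fell on TPM, with 1 and 4 on rescaled TPM. Markers of other brain cells were mostly lower in TAMs on TPM, where 56.4% of all genes tested were, and 20.8% on rescaled TPM. Fibroblast genes were lower in 8 of 8 tested (5 rescaled), astrocyte genes in 8 of 10 and oligodendrocyte genes in 7 of 7 (6 rescaled), and none was higher. Of 6 tested neuron genes 4 were lower and 1 higher on TPM, and 2 lower and 2 higher on rescaled TPM. Of 9 tested genes of the cerebellar granule lineage 4 were higher and 1 lower, and the 4 became 2 without TAM replicate 1 or 4 and 1 without any 1 of the microglia libraries. The lymphocyte list had 1 lower gene of 4 tested and none higher, and the neutrophil list 4 higher and 1 lower of 7.

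The genes around the markers were taken as a local reference. Within 100 kb of the 7 markers 26 other genes were tested. Their median log2 fold change was -0.60, with 1 higher and 16 lower on TPM and 4 higher and 5 lower on rescaled TPM. Counting at most the 4 nearest genes of each marker left 19 genes with a median of -0.56, 1 higher and 11 lower on TPM and 4 higher and 2 lower on rescaled TPM. Syt6, a synaptotagmin gene 76653 bases from Olfml3, had the lowest fold change of the 26 (-2.63 on TPM and -2.17 rescaled), lower than that of Olfml3 itself, at 0 to 0.165 TPM in TAMs. Tmem119 and Selplg fell by 3.49 and 3.13 on the log2 scale, and the tested genes on either side of the pair had smaller changes. Iscu, an iron-sulfur scaffold gene 15441 bases from Tmem119, had -0.74 on TPM and 0.08 on rescaled TPM, and Coro1c, a coronin gene 9792 bases from Selplg, had -0.07 (limma, adjusted p = 0.687) and 0.75. Tpst2, 7106 bases from Crybb1, was lower on both scales (-1.24 and -0.42), and Hps4, a gene of lysosome-related organelles 73498 bases away, fell on TPM (-1.53, limma, adjusted p = 0.00514) and was not called on rescaled TPM (-0.72). Naa35, an acetyltransferase subunit gene 198 bases from Golm1, fell with -1.37 on TPM (limma, adjusted p = 0.00173) and had -0.56 on rescaled TPM (limma, adjusted p = 0.0749). Next to Sparc, the copper chaperone gene Atox1 rose on both scales, by 0.45 and 1.27, and next to Olfml3 the kinase gene Hipk1 fell on TPM only (-0.82, and -0.02 rescaled).

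**Figure D5:**
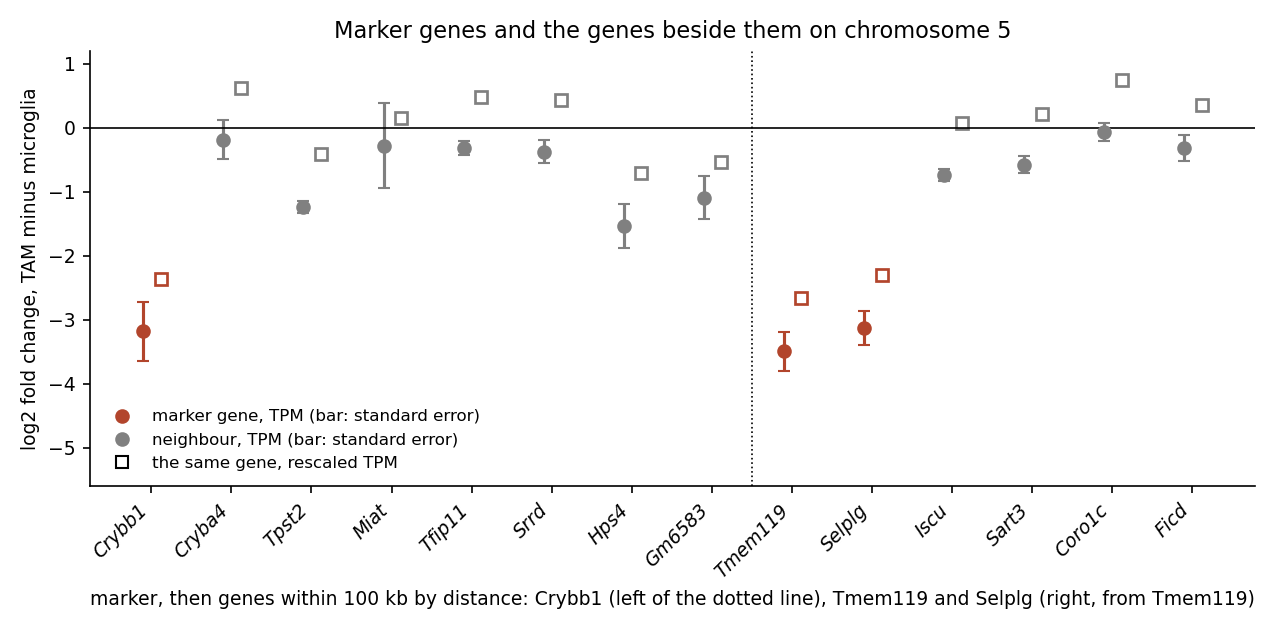
Log2 fold change (TAM minus microglia, with standard error) of Crybb1, Tmem119 and Selplg in red and of the 11 tested genes within 100 kb of them on chromosome 5 in grey, with rescaled TPM as open squares. The 3 markers lie between -3.49 and -3.13 on TPM, and the neighbours between -1.53 (Hps4) and -0.07 (Coro1c).

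The genes most like each marker were found as those with the smallest root mean square difference of log2(TPM + 1) over the 8 libraries, each profile centred on its own mean, among 8900 genes. For Tmem119 these were St3gal6 (0.17), Spry1 (0.26), Gimap6 (0.29), Rapgef5 (0.29) and another of the markers, Crybb1 (0.30), and Selplg came 10th (0.36). Crybb1 was closest to P2ry12 (0.20), Capn3 and Sema4g, with Tmem119 5th. Selplg was closest to Otud1 (0.26), Tmem63a and Oaf, with Tmem119 7th. Olfml3 was closest to Gng10 (0.13), Mzt2 and Cyfip1, with Bin1 9th (0.19), and Bin1 to Large (0.14), Havcr2 and Rasal3, with Olfml3 20th. Golm1 was closest to Asap3 (0.18), Bmpr1a and Tal1, and Asap3 was at 0.724 to 8.24 TPM in TAMs. Sparc had no gene as near as these, its closest being Sall1 (0.41), which was likewise at its lowest in TAM replicate 2. These distances describe 8 libraries in which the 2 groups differ in most genes.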

How the data were processed

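The members and gene lists were chosen with earlier results of these data known. TPM values were computed by the authors and deposited as 1 table with a column per library, per the file headers. Per the submitters' processing notes the build is mm10 and FastQC and DESeq2 were used, without versions. For the aligner, the quantifier and the strandedness no source used here has an entry. The deposited table also holds the authors' log2 fold change, p-value and mean signal per gene, per the file headers. A further 3 unnamed columns were not used.

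Groups and replicate numbers came from the sample titles. A gene was tested if 3 or more libraries had 1 TPM or more of it (15262 genes). The test was limma 3.58.1 in R 4.3.3, with its trend option, on log2 of TPM plus a pseudocount of 1, over the 8 libraries in 1 fit without covariates, with Benjamini-Hochberg adjustment over all genes at 0.05. The fit was tested on simulated data. For rescaled TPM the median ratio was taken over 18200 genes above 0 in all libraries. Pairwise ratios used a two-sided exact permutation test over all 56 arrangements. Added after seeing the data was limma on the ratios of TPM + 1. A pair of markers passes only if it does in both directions. Ratios to the reference genes, and the shares of all genes, were judged in 1 direction only, with the named gene as denominator. Near-identical copies of the members' coding transcripts were searched with blastn 2.17.0 with minima of 80% for identity and for the covered share of the transcript, and none were found. Genes named are the members, the 6 reference genes, the 3 called genes with the smallest p in a list, the most abundant gene of a family, up to 4 nearest neighbours within 100 kb and the most alike profiles; others named, such as Cryba4 in detail, Gcnt1, Fut7, Olfml2b, Col4a1, Stab1, Ap2s1, Hps4, Syt6, Sall1, Siglech, Fcrls and Ly6g, were chosen after their values were seen. Replicate numbers did not pair the libraries (correlations of same-numbered deviations 0.15, 0.0139 and -0.0508). TPM keeps no depth, so no counting interval is given.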

Additional observations from a re-analysis of the deposited data

Results flagged for a closer look

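TAM replicate 2 lay far below the other 4 TAM libraries for 4 of the 7 markers. The gap from TAM replicate 2 to the next library was taken on log2(TPM + 1), as a share of the whole TAM range. It was 0.8197 for Sparc, 0.8526 for Golm1, 0.7909 for Crybb1 and 0.7867 for Bin1. Each is above Dixon's 95% critical value of 0.71 for 5 samples. The flags hold for this log scale only, and the shares differ on TPM itself. Chance flags about 1 in 20 groups, and the markers share their libraries, so these are not 4 separate events. For Tmem119, Olfml3 and Selplg the lowest library did not pass this value (0.617, 0.535 and 0.0879). The groups of 3 microglia libraries were not examined in this way.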

How the results depend on the processing

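Tmem119, Selplg and Crybb1 kept their direction and their call under all alternatives tried, with ranges over leaving out 1 library of -3.62 to -3.25, -3.30 to -3.00 and -3.35 to -2.79. Rescaling ended the calls of the 3 others called on TPM. The log2 fold changes of Bin1, Golm1 and Olfml3 were -0.26, -0.92 and -0.14 on rescaled TPM, -0.37, -1.03 and -0.25 when rescaled over the genes tested, -0.012, -0.49 and 0.061 (reversed) when rescaled without TAM replicate 2, and -0.19, -0.70 and -0.11 in the authors' deposited table. Olfml3 was also lost without the 3 most abundant features (-0.73), and it ranged from -1.12 to -0.76 when 1 library was left out. Sparc (-2.18), not called in limma, had an unadjusted p of 0.0357 in the exact permutation test, the smallest this design allows and one that 49.7% of genes tested reach in this direction, and ranged from -2.59 to -1.18 when 1 library was left out.

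Members called numbered 3 on rescaled TPM, rescaled over the genes tested and rescaled without TAM replicate 2, and 5 to 7 when 1 library was left out. Genes higher were 4203, 3783 and 4215 in these 3 settings and genes lower 3120, 3707 and 3176, and genes lower ranged from 5581 to 9243 when 1 library was left out, lowest without microglia replicate 2. Pairs past the threshold were 7 by limma and 14 by limma without TAM replicate 2, and ratios to reference genes 27 and 35. With 1 library left out the exact permutation test cannot go below 0.0571 or 0.0952.

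Replicate numbers did not pair the libraries. With the replicate number as a block 6 members were called, with 1103 genes higher and 8613 lower, and Tmem119 was at -3.70. With the block on rescaled TPM 3 members, 3524 genes higher and 2565 lower were called, and Bin1, Golm1 and Olfml3 were at -0.37, -1.12 and -0.36.

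List counts moved by over 1.5 times without single microglia libraries for Golgi proteins (3 to 12 lower), mural markers (4 to 10), fibroblast markers (4 to 8), collagens (5 to 9) and olfactomedins (1 to 4). Over leaving out any library the granule lineage ranged from 1 to 4 higher and 1 to 2 lower, partners of Bin1 from 1 to 2 higher, and lymphocyte genes from 0 to 1 in either direction. TPM gives no depth, so how far counting error limits the low values, such as Crybb1 in TAM replicate 2, is unknown.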
